A study of Caenorhabditis elegans with 6 samples.

Results

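The genes described here are 6 cuticle collagens of *Caenorhabditis elegans* that build or mark the adult cuticle: *col-7*, *col-19*, *col-62*, *bli-1*, *bli-2* and *rol-6*. They were chosen by gene name from the 47157 gene IDs in the files, each name matched 1 ID, and all 6 passed the filter on low values. RNA was sequenced from whole young adults of the wild-type strain N2 (3 libraries) and of the *blmp-1(s71)* mutant (3 libraries), raised from bleached embryos through synchronized first-stage larvae. The mutation is carried by every cell at every stage, and BLMP-1 is the worm's BLIMP1 homolog, a DNA-binding regulator that acts in the epidermis and in developmental timing. The nature of the s71 lesion and the hour of harvest are not given in the labels.

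The worm's cuticle is a collagen exoskeleton secreted by the epidermis and rebuilt at each molt, when transcripts of many collagens rise and fall in waves. The adult cuticle differs from the larval ones: LIN-29, the transcription factor that ends larval development in the epidermis, switches on adult-stage collagens such as *col-19*, the usual reporter of adult epidermal fate, together with *col-7* and *col-62*. BLI-1 and BLI-2 are collagens of the struts, columns that cross the fluid-filled middle layer of the adult cuticle, and their loss lets the layers separate into blisters. ROL-6 is a collagen that shapes the body, and its dominant roller alleles make the worm turn about its long axis, a trait long used as a marker of transgenesis.

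The recovered depth was 5255125 to 15218178 reads on genes per library. Ribosomal RNA took 4.0% and 4.56% of reads in wild-type and mutant library 1 and 0.841% to 1.28% in the other libraries. The *blmp-1* transcript itself stood at 12.2 ± 2.20 CPM in N2 and 14.6 ± 6.87 CPM in the mutant (SD, n = 3, limma adjusted p = 0.697), so its level does not check the genotype. All 57 genes of 8 marker lists (yolk, oocyte, sperm, molting cycle, epidermis, body wall muscle, intestine and neurons) had reads in every library. Levels are in CPM, reads scaled to the library's total, divided by a TMM factor between libraries, and TPM, which also corrects for gene length, is used to compare genes with each other. In these whole animals, fewer cells of a type and less RNA per cell cannot be told apart.

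*col-19* fell in the mutant, and it was the only one of the 6 genes that passed the test. It had the highest TPM of them in every library. Its level was 2388, 2962 and 2890 CPM in wild-type libraries 1, 2 and 3 and 1172, 1748 and 1617 CPM in mutant libraries 1, 2 and 3. All 3 mutant libraries lay below all 3 wild-type libraries, and library 1 was the lowest of each group. The mean was 2747 ± 313 CPM in N2 and 1512 ± 302 CPM in the mutant (SD, n = 3). The log2 fold change was -0.87 (SE 0.22, 95% interval -1.36 to -0.39, limma with Benjamini-Hochberg adjustment over 13756 genes, adjusted p = 0.0337). Across all tested genes, 13.4% were called lower and 8.84% higher by the same rule, and 48.6% had no overlap between the groups, so 1 gene of 6 called lower is close to the share among all genes. Called with all libraries, *col-19* missed the threshold when any library other than mutant library 3 was left out, with log2 fold changes of -0.99 to -0.76 and adjusted p of 0.0539 to 0.159, and it also missed it with library size alone as the scaling (-0.54, adjusted p = 0.118). That scaling moved the median over all tested genes from 0.07 to 0.35 and the share of calls that were higher from 39.7% to 94.2%. edgeR and DESeq2 on the recovered reads gave -0.83 (adjusted p = 0.0425) and -0.87 (adjusted p = 0.00696).

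*col-7* and *col-62*, also adult-stage collagens activated by LIN-29, had lower means in the mutant but did not pass. For *col-7* the levels were 25.04, 53.0 and 70.9 CPM in wild-type libraries 1, 2 and 3 and 17.01, 26.0 and 5.996 CPM in the mutant libraries. For *col-62* they were 25.3, 51.9 and 63.6 CPM in N2 and 20.1, 27.3 and 8.52 CPM in the mutant. In both genes the groups overlapped by 1 library only: mutant library 2, the highest mutant, lay just above wild-type library 1, the lowest wild type. Mutant library 3 was below every other library, at 64 reads for *col-7* (95% exact Poisson interval 49.3 to 81.7, counting error only) and 91 reads for *col-62* (73.3 to 112). The log2 fold changes were -1.63 for *col-7* (SE 0.59, 95% interval -3.07 to -0.19, limma adjusted p = 0.0847) and -1.33 for *col-62* (SE 0.48, 95% interval -2.45 to -0.21, limma adjusted p = 0.0756). DESeq2 on the recovered reads called both lower (*col-7* -1.60, adjusted p = 0.00950; *col-62* -1.33, adjusted p = 0.0146), where it called 15.7% of all genes lower. Without mutant library 3 limma gave -1.08 for *col-7* and -0.87 for *col-62* (adjusted p = 0.0859 and 0.0940), and without wild-type library 1 it gave -1.96 and -1.62 (adjusted p = 0.0655 and 0.0555).

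**Figure D1:**
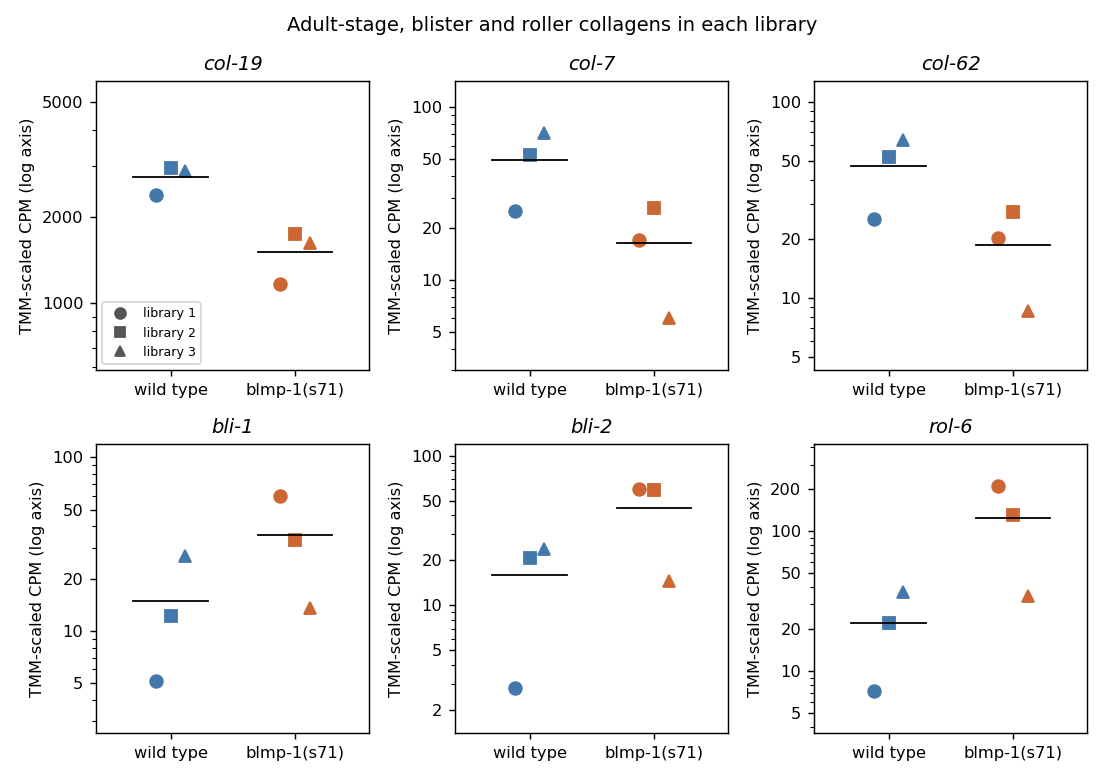
TMM-scaled CPM (log axes) of the 6 collagens, with 1 point per library, marker shape for the library number and a bar at each group's mean. Only *col-19* separates the groups, and in *bli-1*, *bli-2* and *rol-6* wild-type library 1 is the lowest library and mutant library 3 lies within the wild-type range.

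*col-7* and *col-62* are neighbours on chromosome I in WBcel235, a build that may differ from the one the authors used. *col-7* (WBGene00000596) runs from 7401132 to 7402761 on the plus strand and *col-62* (WBGene00000638) from 7403291 to 7404374 on the minus strand, so they lie tail to tail with 529 bases between them. Their TPM were of similar size, and the ratio of *col-7* to *col-62* was 0.995, 1.03 and 1.12 in wild-type libraries 1, 2 and 3 and 0.849, 0.957 and 0.706 in the mutant libraries. Each was also the collagen most like the other of the 134 tested, by the root mean square difference of log2 profiles centred on their own mean over 6 libraries (0.19). How reads that map to several places were treated is not given in the sources used here, so the split between similar collagen genes is uncertain. *col-19* (WBGene00000608, chromosome X, 421707 to 422691, plus strand) overlaps *ZK1193.2* on the opposite strand and shares 0 exonic bases with it. *ZK1193.2* stood at 44.8 ± 7.01 and 41.2 ± 5.79 CPM in wild type and mutant (log2 fold change -0.11, limma adjusted p = 0.702), a sign that turned with library size alone (0.21).

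The strut collagens *bli-1* and *bli-2* had higher means in the mutant, and neither passed the test. *bli-1* was at 5.15, 12.1 and 27.1 CPM in wild-type libraries 1, 2 and 3 and at 60.0, 33.5 and 13.6 CPM in mutant libraries 1, 2 and 3. *bli-2* was at 2.81, 20.8 and 24.0 CPM in N2 and at 60.2, 58.7 and 14.6 CPM in the mutant. In both, mutant libraries 1 and 2 were above every wild-type library, while mutant library 3 lay inside the wild-type range. The log2 fold changes were 1.25 for *bli-1* (SE 0.74, 95% interval -0.58 to 3.09, limma adjusted p = 0.232) and 1.59 for *bli-2* (SE 0.97, 95% interval -0.90 to 4.08, limma adjusted p = 0.252). Without mutant library 3 they were 1.80 and 2.24 (adjusted p = 0.0878 and 0.135), and without both library 1 samples 0.31 and 0.47 (adjusted p = 0.677 and 0.600). Among the wild-type libraries alone the highest level was 5.26 times the lowest for *bli-1* and 8.53 times for *bli-2*, against 1.24 times for *col-19*. The lowest *bli-2* value rested on 12 reads (95% exact Poisson interval 6.20 to 21.0) and the lowest *bli-1* value on 22 reads (13.8 to 33.3).

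The third strut collagen, *bli-6*, stood at 134 ± 64.4 CPM in N2 and 157 ± 87.6 CPM in the mutant (log2 fold change 0.15, 95% interval -1.50 to 1.79, limma adjusted p = 0.876). Its log2 fold change turned to -0.22 without wild-type library 1 and to -0.23 without mutant library 1. In mutant library 3 it was at 55.9 CPM, below the lowest wild-type library at 62.95 CPM, whereas *bli-1* and *bli-2* were inside the wild-type range there. Of the 3 strut collagens, 0 were called by limma, edgeR or DESeq2. The unadjusted limma p was under 0.05 for 0 of them, against 6166 of all 13756 genes tested. The median log2 fold change was 1.25 in the list and 0.07 over all tested genes.

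*bli-1* (WBGene00000251, chromosome II, 10708960 to 10712156, plus strand) and *bli-2* (WBGene00000252, chromosome II, 5651394 to 5652434, minus strand) each overlap a gene of the opposite strand. *bli-1* overlaps *dph-2* and shares 7 exonic bases with it, and *bli-2* overlaps *zyg-1*, which encodes a kinase of centriole assembly, and shares 0. Whether counting used strand is not given in the sources used here. The overlapping genes, named because of their position, had the opposite sign: *dph-2* fell by 0.73 on the log2 scale (limma adjusted p = 0.0461) and *zyg-1* fell by 0.94 (limma adjusted p = 0.0346). Both calls were lost with library size alone (-0.41 and -0.62, adjusted p = 0.279 and 0.114) and when any library other than mutant library 3 was left out. *zyg-1* was at 51.9 ± 3.63 CPM in N2 and 27.6 ± 9.68 CPM in the mutant, and *dph-2* at 32.7 ± 6.01 and 19.3 ± 3.34 CPM (SD, n = 3).

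*rol-6* (WBGene00004397, chromosome II, 8733050 to 8734239, plus strand) overlaps no other annotated gene and had the largest log2 fold change among the 6. It was at 7.26, 21.98 and 36.8 CPM in wild-type libraries 1, 2 and 3 and at 211, 130 and 34.5 CPM in mutant libraries 1, 2 and 3. Mutant libraries 1 and 2 were each above every wild-type library, and mutant library 3 lay just under wild-type library 3. The mean in the mutant was 5.70 times that in wild type, with a log2 fold change of 2.37 (SE 0.89, 95% interval 0.09 to 4.65) that did not pass after adjustment (limma adjusted p = 0.103). It passed without mutant library 3, at 3.11 (adjusted p = 0.0308), and by DESeq2 on the recovered reads, at 2.55 (adjusted p = 0.0233), where DESeq2 called 11.7% of all genes higher. Without both library 1 samples it was 1.30 (adjusted p = 0.211).

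Several other shape collagens had profiles near that of *rol-6*, but not all did. In mutant library 3 the log2 level minus the wild-type mean was 0.88 for *rol-6* and -1.24 for *rol-1*. SQT-1 acts together with ROL-6 in body shape, and *sqt-1* was at 11.2, 39.3 and 63.1 CPM in N2 and at 248, 144 and 36.7 CPM in mutant libraries 1, 2 and 3. *sqt-3*, a collagen needed from embryonic life on, was at 74.8 ± 39.8 CPM in N2 and 313 ± 233 CPM in the mutant, and its log2 fold change of 1.86 did not pass (95% interval 0.03 to 3.69, limma adjusted p = 0.108). *rol-8* and *sqt-2* differed by 2.1 and 1.82 (limma adjusted p = 0.167 and 0.231) and *rol-1* by 0.29 (limma adjusted p = 0.771), with *rol-1* at -0.30 when mutant library 1 was left out. Of the 6 roller and squat collagens all had positive log2 fold changes (median 1.84), against 92 of the 134 cuticle collagens tested. Of the 6, 0 passed in limma or edgeR, and 2 were called higher by DESeq2, which called 11.7% of all genes higher. An unadjusted limma p under 0.05 was found for 2, against 6166 of all 13756 genes tested. Without mutant library 3, limma called 3 of the 6 higher, where it called 13.9% of all genes higher, against 8.84% with all libraries. The collagens most like *rol-6* over the 6 libraries were *rol-8* (0.25) and *sqt-1* (0.29), and those most like *bli-2* were *sqt-2* (0.26) and *col-14* (0.27).

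**Figure D2:**
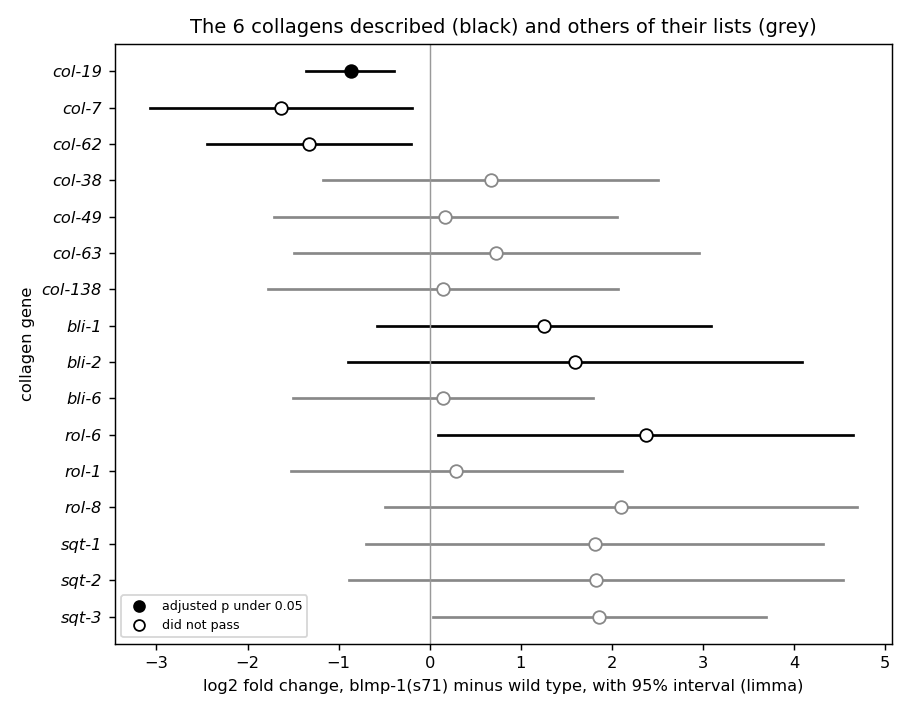
Log2 fold change of mutant over wild type with its 95% interval from limma, for the 6 collagens described (black) and the other collagens of their lists (grey); a filled point passed an adjusted p of 0.05. *col-19* alone is filled. The intervals of *col-7*, *col-62* and *rol-6*, and that of *sqt-3* among the grey genes, also leave out 0 before adjustment over all genes.

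A ratio of 2 genes within a library does not depend on the scaling between libraries, and 3 such ratios were tested. The TPM of *rol-6* was 0.579, 0.502 and 0.522 times that of *sqt-1* in wild-type libraries 1, 2 and 3 and 0.765, 0.811 and 0.842 times in mutant libraries 1, 2 and 3. The groups did not overlap, although each gene by itself did, and mutant library 3 stood with the other mutant libraries. The mean log2 ratio was -0.91 ± 0.11 in wild type and -0.31 ± 0.07 in the mutant (SD, n = 3), a difference of 0.59. The exact two-sided permutation p was 0.1, the smallest that 3 against 3 libraries can give, and 0.3 after Benjamini-Hochberg adjustment over the 3 ratios, so this test could not reach 0.05 with 3 libraries a group. The difference of the mean log2 ratios was 0.55 to 0.65 when each library was left out in turn.

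The other tested ratios overlapped between the groups. *bli-1* stood at 0.577, 0.183 and 0.356 times *bli-2* in wild type and at 0.314, 0.18 and 0.293 times in the mutant (exact two-sided permutation p = 0.4, adjusted 0.4). *col-19* stood at 76.3, 44.7 and 32.6 times *col-7* in wild type and at 55.1, 53.7 and 216 times in the mutant (exact two-sided permutation p = 0.4, adjusted 0.4). Mutant library 3 set the last value apart: there *col-7* was at its lowest and *col-19* was not. Among ratios not tested, *col-7* to *col-62* and *rol-6* to *col-19* did not overlap between the groups, while *rol-6* to *bli-2* did. The *rol-6* to *col-19* ratio was 0.00333 to 0.0139 in wild type and 0.0233 to 0.197 in the mutant.

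**Figure D3:**
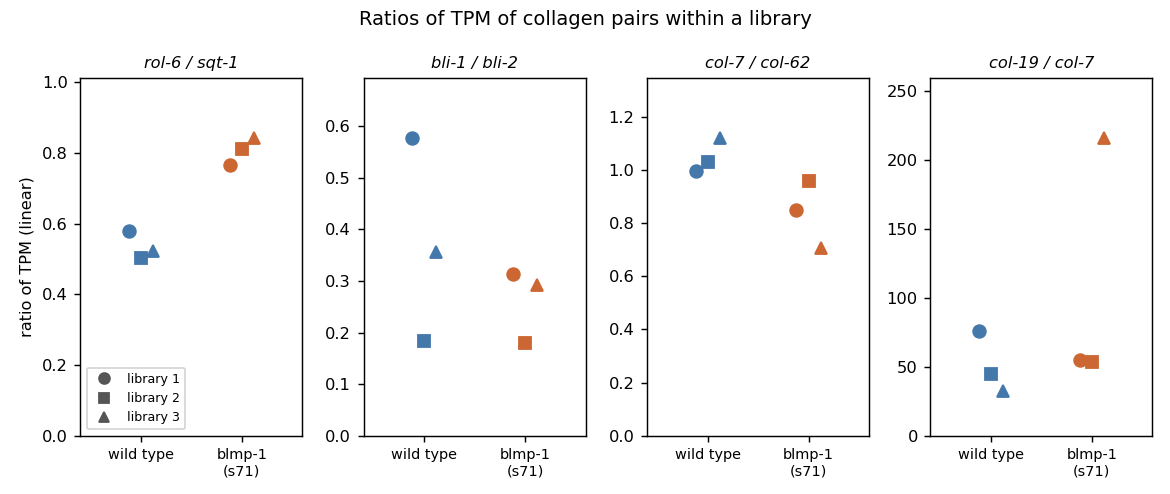
Ratio of TPM of 4 collagen pairs within each library (linear axes from 0), with 1 point per library and marker shape for the library number. The *rol-6* to *sqt-1* ratio lies at 0.502 to 0.579 in wild type and 0.765 to 0.842 in the mutant. The *col-7* to *col-62* ratio, not tested, lies at 0.995 to 1.12 in wild type and 0.706 to 0.957 in the mutant. The *bli-1* to *bli-2* and *col-19* to *col-7* ratios overlap between the groups.

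By TPM the 6 genes kept *col-19* at the top in both groups, at 2534 ± 196 in wild type and 1684 ± 343 in the mutant (SD, n = 3), and the order below it differed. In wild type *col-7* (56.4 ± 23.4) and *col-62* (53.2 ± 19.7) came next, followed by *rol-6* (21.7 ± 13.6), *bli-2* (18.03 ± 12.6) and *bli-1* (5.27 ± 3.73). In the mutant *rol-6* came next (154 ± 110), followed by *bli-2* (63.3 ± 37.6), *col-62* (26.1 ± 13.8), *col-7* (23.02 ± 14.5) and *bli-1* (15.9 ± 10.5). The ranges of neighbours below *col-19* overlapped in both orders. Compared within each library, *col-62* was above *rol-6* and *bli-2* above *bli-1* in 3 of 3 wild-type libraries, while *col-7* was above *col-62* and *rol-6* above *bli-2* in 2 of 3. In the mutant *rol-6* was above *bli-2*, *bli-2* above *col-62* and *col-62* above *col-7* in 3 of 3 libraries, and *col-7* was above *bli-1* in 2 of 3. *col-19* was above the rest in every library. It held 96.9%, 94.1% and 92.1% of the summed TPM of the 6 genes in wild-type libraries 1, 2 and 3 and 75.7%, 85.5% and 95.3% in the mutant libraries.

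Within the 178 cuticle collagens in the files, ranked by TPM inside each library, the adult-stage genes had lower places in the mutant. *col-19* ranked 11, 7 and 8 in wild-type libraries 1, 2 and 3 and 16, 12 and 13 in the mutant libraries. *col-7* ranked 69, 65 and 65 against 105, 91 and 105, and *col-62* ranked 68, 66 and 71 against 103, 89 and 95. For these genes no mutant rank reached the wild-type range, and for *col-7* and *col-62* this differed from their CPM levels, which overlapped. *rol-6* went the other way, from 92, 87 and 83 in wild type to 51, 56 and 67 in the mutant, again with no overlap. The strut genes did not separate: *bli-1* ranked 104 in both wild-type library 3 and mutant library 1 and lower in the other libraries, and *bli-2* ranked 83 to 106 in wild type and 73 to 83 in the mutant. These ranks are given with no test, and a gene's rank also moves when other collagens move. How many of the 178 collagens separate wild type from mutant by rank was not counted, so the separation is not shown to be particular to these genes. By level, 40 of the 134 cuticle collagens tested kept all mutant libraries apart from all wild-type libraries, in either direction. Over all genes tested, 6688 of 13756 did so (48.6%).

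**Figure D4:**
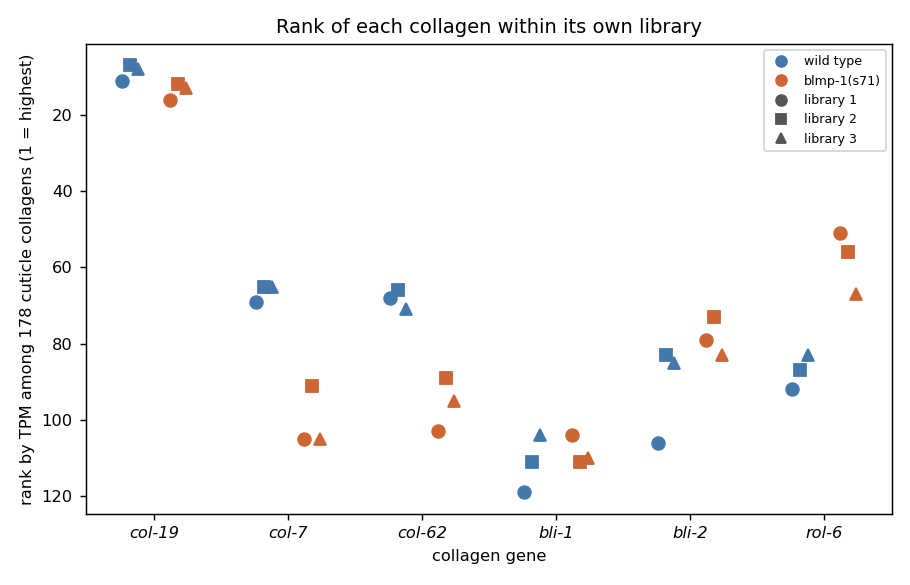
Rank of each gene by TPM among the 178 cuticle collagens of its own library (1 is the highest, at the top), with 1 point per library, colour for the group and marker shape for the library number. *col-7* ranks 65 to 69 in wild type and 91 to 105 in the mutant, *rol-6* 83 to 92 and 51 to 67, and the *bli-1* ranks overlap.

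As a share of the summed TPM of all cuticle collagens, *bli-1*, *bli-2* and *rol-6* together made up 0.0198%, 0.0853% and 0.116% in wild-type libraries 1, 2 and 3 and 0.596%, 0.381% and 0.116% in mutant libraries 1, 2 and 3. *col-19* made up 3.49%, 4.58% and 4.12% in wild type and 2.11%, 2.89% and 3.06% in the mutant. The share of *col-19* was lower in every mutant library than in any wild-type library. The share of the strut and roller genes in mutant library 3 equalled that of wild-type library 3 to 3 digits.

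The other 4 collagens that earlier work links to LIN-29 had positive log2 fold changes, unlike *col-7* and *col-62*. *col-38*, *col-49*, *col-63* and *col-138* were at 0.67, 0.17, 0.73 and 0.15, and none passed (limma adjusted p = 0.501 to 0.895). *col-38* was at 51.5, 120 and 168 CPM in N2 and at 281, 243 and 61.5 CPM in the mutant, and each of these 4 genes was lowest in wild-type library 1 or in mutant library 3. Their signs turned when 1 or both of the library 1 samples were left out: *col-49* and *col-138* were at -0.25 and -0.27 without wild-type library 1, and *col-38* and *col-63* at -0.13 and -0.24 without both. Of the 7 collagens on this list 1 fell (14.3%, against 13.4% of all genes), 0 rose and 6 did not pass, with a median of 0.15. The collagens most like *col-19* were *col-20* (0.10) and *col-8* (0.15). Both fell, *col-20* from 3597 ± 162 to 2189 ± 372 CPM (limma adjusted p = 0.0359) and *col-8* from 1454 ± 57.5 to 880 ± 249 CPM (limma adjusted p = 0.0435). Like that of *col-19*, both calls were lost when any library other than mutant library 3 was left out. They were also lost with library size alone (*col-20* -0.40, adjusted p = 0.204; *col-8* -0.44, adjusted p = 0.213) and with TPM (adjusted p = 0.0729 and 0.115). *col-120* (0.27) was next to *col-62* in likeness to *col-7*, and *col-133* (0.20) next to *col-7* in likeness to *col-62*. *bli-1* was most like *dpy-3* (0.23), a furrow collagen, and *col-170* (0.27).

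Of the 134 cuticle collagens tested, 18 rose (13.4%, against 8.84% of all genes), 10 fell (7.46%, against 13.4% of all genes) and 106 did not pass. The median log2 fold change of the 134 was 0.55 against 0.07 over all genes, and 92 of them had positive values. The called collagens with the smallest adjusted p were *col-124* (-6.42), *col-176* (4.14), *col-139* (-2.12) and *col-129* (-2.06). These calls were kept in every alternative in which the gene was tested. DESeq2 on the recovered reads called 45 of the collagens higher and 18 lower, where it called 11.7% of all genes higher and 15.7% lower. Limma without a filter on low values called 2 higher and 5 lower, against 96 and 19 of all 22878 genes. Of 6 furrow collagens, which line the ring-shaped grooves, all had positive values (median 1.85) and *dpy-2* rose by 1.86 (limma adjusted p = 0.0445). Of 6 body-shape collagens tested, 0 passed in limma or edgeR. DESeq2 called 1 higher and 2 lower, where it called 11.7% of all genes higher and 15.7% lower. The unadjusted limma p was under 0.05 for 1 of the 6, against 6166 of all 13756 genes tested. Of 14 genes for processing and cross-linking collagen, 3 rose (21.4%) and 1 fell (7.14%), against 8.84% and 13.4% of all genes (median 0.44). They were *dpy-31*, a procollagen protease (1.07), *dpy-18*, a prolyl hydroxylase subunit (0.88), and *bli-3*, a dual oxidase whose loss blisters the cuticle (0.72), and the peroxidase *skpo-1*, which fell by 0.83. Of 17 regulators of the larval-to-adult transition, 4 rose (23.5%, against 8.84% of all genes) and 0 fell (median 0.51). Among them *lin-29*, whose product activates *col-19*, was at 8.79 ± 2.35 CPM in N2 and 17.99 ± 5.07 CPM in the mutant (log2 fold change 0.95, limma adjusted p = 0.0371). The others called were *nhr-85* (1.10), *grh-1* (1.09) and *dre-1* (0.75). When each library was left out in turn, 1 to 50 of the collagens were called higher and 4 to 9 lower, with 0 to 5 furrow, 0 to 5 processing and 0 to 6 regulator genes higher. The calls of *dpy-2*, *dpy-31*, *dpy-18*, *bli-3*, *skpo-1*, *lin-29*, *nhr-85*, *grh-1* and *dre-1* were each lost when any library other than mutant library 3 was left out. That of *skpo-1* was also lost with library size alone (-0.50, adjusted p = 0.175), upper-quartile scaling (adjusted p = 0.0619), TPM (adjusted p = 0.108) and edgeR (adjusted p = 0.0658).

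The mutant libraries in which the strut and roller genes were highest, 1 and 2, also had the highest molting and the lowest oocyte transcripts. The summed level of 12 molting genes was 170.5 to 250.3 CPM in N2. In mutant libraries 1, 2 and 3 it was 1183, 595.5 and 330.2 CPM. Of the 12 molting genes 3 rose and 9 did not pass, where limma called 8.84% of all genes higher. The summed level of 13 oocyte genes was 5805 to 9502 CPM in N2. In mutant libraries 1, 2 and 3 it was 2618, 1995 and 5304 CPM. Of these genes 9 fell (69.2%, against 13.4% of all genes) and 4 did not pass. Mutant library 3 was the mutant library nearest to wild type in both lists and in *bli-1*, *bli-2* and *rol-6*, but not in *col-7* and *col-62*, where it was the farthest from wild type. Wild-type library 1, the lowest wild-type library for all 6 genes, had 165769 CPM of the 6 yolk genes against 44444 and 55668 CPM in wild-type libraries 2 and 3. The 6 epidermis markers summed to 115.8 to 167.5 CPM in wild type and 128.7 to 172.1 CPM in the mutant. Their log2 fold changes were positive for 5 and negative for 1 (median 0.39). The negative one, *lin-26*, was the only one called (log2 fold change -0.92, limma adjusted p = 0.0356). The *lin-26* call was lost with library size alone (-0.60, adjusted p = 0.116), TPM (adjusted p = 0.0779) and edgeR (adjusted p = 0.0501), and when any library other than mutant library 3 was left out. Of the other markers, limma called 2 of 8 sperm genes higher, against 8.84% of all genes. It called 0 of the 6 yolk, 4 body wall muscle, 4 intestine and 4 neuron genes. An unadjusted limma p under 0.05 was found for 3, 0, 0 and 2 of them, against 6166 of all 13756 genes tested. When each library was left out in turn, 0 to 12 of the oocyte genes were called lower and 1 to 9 of the molting genes higher. The part of developmental stage, of germline content and of ribosomal RNA in the collagen values was not tested.

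**Figure D5:**
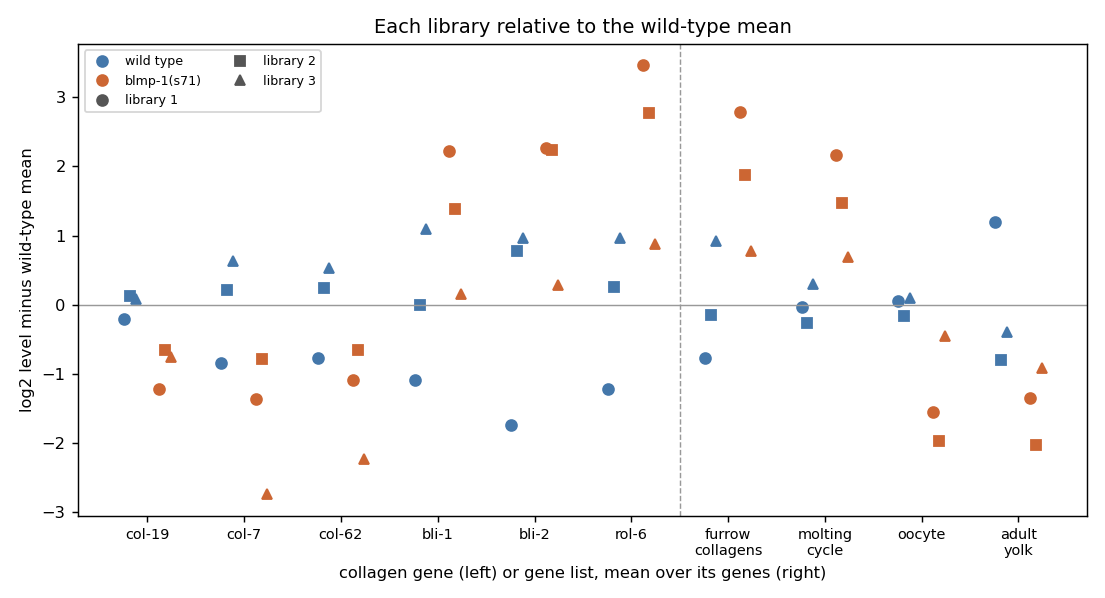
Log2 level of each library minus the wild-type mean, for the 6 collagens (left of the dashed line) and for the mean over furrow collagens, molting, oocyte and yolk genes (right), with 1 point per library. In mutant library 3 *rol-6* is at 0.88 and the molting list at 0.69, nearer to wild type than in mutant libraries 1 and 2, while *col-7* is at -2.74, the lowest point of all.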

How the data were processed

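Whole young adults of N2 and *blmp-1(s71)* were sequenced, 3 libraries each. Per the file headers, the deposited values are CPM and TPM per gene for each library. The submitters' processing notes list, with no order, DESeq2 1.22.0, featureCounts 1.6.3, HISAT2 2.1.0 and Trimmomatic 0.36. Genome build, annotation, strand setting and the treatment of multi-mapping reads: not given in the sources used here. The deposited CPM corresponded to a whole number of reads (tolerance 0.01 reads) for 100.0% of values above 0, which gave the read counts behind them and the depths, and 3 reads were worth 0.197 to 0.571 CPM. Dates in place of 11 gene symbols were replaced by their names.

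CPM were divided by TMM factors (edgeR 4.0.16) from the recovered reads. Genes with at least 1 CPM in at least 3 libraries were tested with limma 3.58.1 (R 4.3.3) on log2(CPM + 1), with trend and robust settings, and adjusted over 13756 genes. Fold changes on this scale understate the change of low genes. The limma fit was also run on simulated libraries, drawn independently at wild-type levels with planted changes. That setting held no shift shared by a group or by a library number, so no conclusion about these calls is drawn from it. Ratios were compared with an exact two-sided permutation test. The labels do not say whether libraries came from separate cultures, so p-values measure the spread between these libraries, which may be technical. Exact Poisson intervals cover counting error only. Gene positions come from WBcel235.

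The 6 genes and all lists were chosen with earlier results of these data known. Besides the 6, the text names the other members of the strut, roller and LIN-29 lists, *blmp-1*, and the 2 collagens most like each of the 6. Of each other list, up to 4 called genes were selected by smallest adjusted p (with none called, the 1 with the highest mean). The oocyte, sperm and molting genes and the body-shape collagen *dpy-4* selected by this rule are counted in their lists but not described singly. Alternatives were other scalings, filters, pseudocounts, TPM, edgeR and DESeq2 1.42.0 on the recovered reads, a replicate block, and libraries left out.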

Additional observations from a re-analysis of the deposited data

How the results depend on the processing

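None of the 6 collagens changed sign under any alternative run, and *bli-1* and *bli-2* passed under none. *col-19* passed in 11 of 20 alternatives. It missed with library size alone (-0.54), without a filter (-0.87, adjusted p = 0.0625), with TPM (-0.61, adjusted p = 0.0526) and without both library 1 samples (-0.71, adjusted p = 0.107). It has no value without the 50 most abundant genes, since it is one of them. *col-62* passed with DESeq2 size factors (-1.36) and DESeq2 (-1.33), *col-7* with DESeq2 (-1.60), and *rol-6* with DESeq2 (2.55) and without mutant library 3. Leaving out each library gave -0.99 to -0.76 for *col-19*, -2.05 to -1.08 for *col-7*, -1.66 to -0.87 for *col-62*, 0.72 to 1.81 for *bli-1*, 0.81 to 2.24 for *bli-2* and 1.77 to 3.11 for *rol-6*. Calls over all genes, 3061 with all libraries (1216 higher, 1845 lower), ranged from 34 without mutant library 2 to 4746 without mutant library 3 (25 to 1851 higher, 9 to 2895 lower), and were 124 without both library 1 samples (108 higher, 16 lower). Scaling by library size only gave 2282 higher and 140 lower, the deposited TPM gave 2020 higher and 217 lower, and dropping the filter left 115 calls (96 higher, 19 lower). Upper-quartile scaling gave 2032 higher and a minimum mean of 10 CPM gave 628. Deviations from the group means correlated at 0.355, 0.443 and -0.0867 between the same-numbered libraries 1, 2 and 3. Between differently numbered libraries the correlations were -0.449 to 0.185. The labels name no pairing, and these values do not settle whether the numbers pair the libraries. A replicate block gave 5877 calls in limma (2372 higher, 3505 lower) and 5340 in edgeR (2216 and 3124), with *col-19* at -0.87 (limma adjusted p = 0.00124) and *rol-6* at 2.37 (limma adjusted p = 0.273). TMM factors from tested genes only, chosen after seeing the data, gave 3343 calls. Among other named genes the sign turned with library size, upper-quartile scaling and TPM for *asp-1* (0.28, 0.09 and 0.22) and *snb-1* (0.30, 0.11 and 0.24), and with edgeR and DESeq2 for *unc-54* (-0.01 and -0.06). Without both library 1 samples it turned for *bli-6* (-0.55), *rol-1* (-0.45), *col-38* (-0.13), *col-49* (-0.69), *col-63* (-0.24), *col-138* (-0.72), *vit-6* (0.07) and *asp-1* (0.01). Leaving out each library in turn gave -0.23 to 0.77 for *bli-6*, -0.31 to 0.86 for *col-49*, -0.35 to 0.84 for *col-138*, -0.98 to 0.11 for *vit-6*, -0.20 to 1.03 for *unc-54*, -0.09 to 0.07 for *snb-1*, -0.30 to 1.06 for *rol-1* and -0.23 to 0.46 for *blmp-1*. The overlapping gene *ZK1193.2*, run after seeing the data, was at 0.21, 0.02 and 0.13 with library size, upper-quartile scaling and TPM. Leaving out each library gave it -0.25 to 0.03. Without a filter, limma lost the calls of *dpy-2*, *dpy-31*, *dpy-18*, *bli-3*, *skpo-1*, *lin-29*, *nhr-85*, *grh-1*, *dre-1*, *lin-26*, *col-20*, *col-8*, *zyg-1* and *dph-2*. The cause of these changes was not tested. With 3 libraries a group, an exact permutation p cannot go below 0.1, and the lowest *bli-2* value rests on 12 reads.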
